A study of Homo sapiens with 12 samples.

Results

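Estradiol (17β-estradiol, E2) was given for 4 hours to triple negative breast cancer cells that had first been made to express estrogen receptor β, and total RNA was sequenced. The comparison was made between 3 libraries from cells given 10 nM E2 and 3 libraries from cells given 0.1% DMSO, the vehicle. These 6 libraries were chosen by their sample labels and are part of a series of 12. All 6 came from the human line MDA-MB-468 carrying an inducible receptor (labelled MDA-MB-468-ERbeta1), and all 6 had received 50 ng/mL doxycycline for 48 hours before the ligand. The other 6 libraries came from the same cells without doxycycline, 3 given vehicle and 3 given E2, and serve here as the background. The cells of all 12 libraries were kept in phenol red-free medium, for 3 days with 10% charcoal stripped serum and then with 5%. This lowers the estrogen that serum and phenol red bring. The model is 1 engineered line in which a drug turns the receptor on, and every induced library carries doxycycline, so the ligand was compared within drug-treated cells. The labels do not say that the 3 libraries of a group came from separate cultures. The p-values therefore measure only the spread between the libraries of a group, pooled over the 4 groups.

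Estrogen receptor β, encoded by ESR2, is a nuclear receptor that binds estradiol and then acts as a transcription factor, either on estrogen response elements in DNA or through other bound factors such as AP-1. Its relative estrogen receptor α, encoded by ESR1, drives growth in hormone-dependent breast cancer, while triple negative tumours are defined by the lack of α, of the progesterone receptor and of ERBB2 amplification. At a few hours after ligand, a change in RNA reflects early transcription together with the first waves of secondary control.

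The 6 induced libraries held between 12.7 M and 31.8 M expected counts (M, 1000000 counts), and the shallowest of the 12 libraries 7.89 M. Between 4.38% and 4.70% of the counts of a library fell on its 10 most abundant genes. The deposited file names give each replicate number a sequencing lane of its own, shared by the 4 groups, and carry a mark that replicates 2 and 3 share and replicate 1 does not. On the first principal component (56.6% of the variance) the induced E2 libraries lay at one end, the uninduced libraries at the other and the induced vehicle libraries between them, and the second (12.5%) set the 4 libraries of replicate 1 apart from the other 8. Same-numbered libraries of the 2 induced groups deviated together, with correlations of 0.198 to 0.433 across genes. Different numbers, over all groups, ran from -0.398 to 0.321. Fits with the replicate number as a block are given beside part of the main values. Counts of lists given without a block value can change with it too. For the estrogen-response list below the block gave 30 higher and 1 lower, and for the cytokine list 9 higher and 10 lower. All 15 breast epithelial markers examined were above 1 CPM (counts per 1000000, with library sizes scaled by TMM for single genes and as they are for sums of markers) in every group. DCN, LUM and POSTN of the fibroblast markers and CD3D and MS4A1 of the leukocyte markers were at 0 throughout. Other members of these lists were not: COL1A1, FAP, PDGFRA, CD14 and CD68 had means above 1 CPM in every group. The fibroblast markers summed to 40.2 to 42.3 CPM in the induced vehicle and 38.9 to 41.1 CPM in the induced E2 libraries. The leukocyte markers summed to 35.8 to 44.3 and 31.3 to 33.9 CPM.

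ESR2 was present at 134, 113 and 115 CPM in the vehicle libraries and at 116, 98.6 and 98 CPM after E2, in the order of replicates 1 to 3. The 2 groups overlapped, and the difference did not pass the test (log2 change -0.21, SE 0.09, adjusted p = 0.119). With the replicate block it did, at a log2 change of -0.21 and adjusted p = 0.0003. ESR2 was lower after E2 in each same-numbered pair. ESR1 stood at 4.43, 3.21 and 3.94 CPM with vehicle and 4.32, 4.13 and 3.6 CPM with E2, an overlap of the groups with log2 change 0.09, SE 0.19, adjusted p = 0.826. Uninduced cells had 1.3 CPM of ESR2 with vehicle.

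Of 23228 genes in the files, 14541 passed a filter on low counts and were tested, and 8687 were not. E2 changed 2394 of them at an adjusted p under 0.05 (edgeR quasi-likelihood test, Benjamini-Hochberg adjustment), which is 16.5% of the genes tested. Of these, 1433 rose (9.85%) and 961 fell (6.61%). With the replicate block the calls numbered 3460 (23.8%), 1963 higher (13.5%) and 1497 lower (10.3%), and 2393 of the 2394 genes were among them. Without any library of replicate 1, 3391 genes were called, and without those of replicate 2 or 3 the number was 1026 or 990. Leaving out vehicle replicate 2 alone lowered the number of genes called lower to 609. In 2341 of the 2394 called genes the 3 E2 libraries all lay on 1 side of the 3 vehicle libraries, against 4439 of all tested genes (30.5%).

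Most of the response was small in fold. Called genes that changed by less than 1.5-fold numbered 1753, or 73.2% of the total. Another 254 rose and 120 fell by 1.5- to 2-fold, 168 rose and 47 fell by 2- to 4-fold, and 49 rose and 3 fell by 4-fold or more. Genes called and at least 2-fold higher made up 1.49% of the tested genes (217), and those at least 2-fold lower 0.344% (50). A test against a minimum fold (edgeR glmTreat) placed 221 higher and 39 lower genes past 1.5-fold, 87 and 4 past 2-fold, and 6 and 0 past 4-fold. With the block these became 291 and 69, 108 and 14, and 11 and 0.

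The size classes differed in the abundance of their genes. Per unit of transcript length, the median vehicle level was 0.398 TPM (transcripts per 1000000, which corrects for length) in genes that rose 4-fold or more, 4.39 TPM in the 2- to 4-fold class, 14.1 TPM in the 1.5- to 2-fold class and 34.2 TPM below that. Among falling genes the medians were 0.44, 4.17, 8.82 and 23.2 TPM in the same order, and the median of all tested genes was 18 TPM. Of the 49 genes that rose 4-fold or more, 30 had a mean under 1 CPM with vehicle. The number of counts limits what can be called in the low range: the median standard error of the log2 change was 0.373 under 1 CPM and 0.043 above 100 CPM, and 6.15% of genes were called in the first range against 21.2% in the second.

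In scaled counts, which also grow with transcript length, the called genes that rose gained 40689 CPM together, and those that fell dropped by 12049 CPM. These sums and the shares below rest on TMM scaling and were not computed with another. Upper quartile scaling called 1258 genes higher and 1206 lower, where TMM called 1433 and 961, so the balance of small changes depends on the scaling. Genes that rose by less than 1.5-fold carried 53.1% of the gain, and the class of 4-fold or more carried 1.61%. For the loss the share of changes under 1.5-fold was 79.5%. IGFBP5, which encodes a secreted binding protein of insulin-like growth factors, made 7.59% of the gain alone. Its level was 3263, 3174 and 3161 CPM with vehicle and 6282, 6170.0 and 6411 CPM with E2, with no overlap (log2 change 0.97, SE 0.18, adjusted p = 0.00135). The SE takes in the spread of all 12 libraries, and the uninduced vehicle libraries were at 919.5, 1548 and 1576 CPM.

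**Figure D1:**
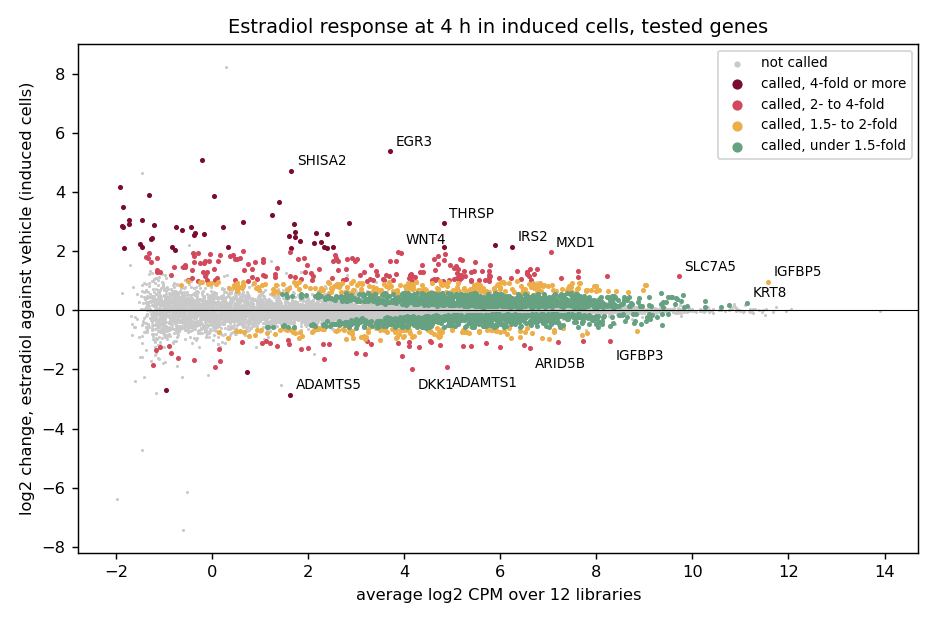
Each point is 1 of the tested genes, with its average log2 CPM over the 12 libraries on the horizontal axis and its log2 change with E2 in induced cells on the vertical axis, coloured by size class where the gene was called. The 4-fold class lies mostly at low levels, IGFBP5 is the called gene furthest to the right, and grey points at the extremes of the vertical axis are uncalled genes with all 3 libraries of a group at 0.

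**Figure D2:**
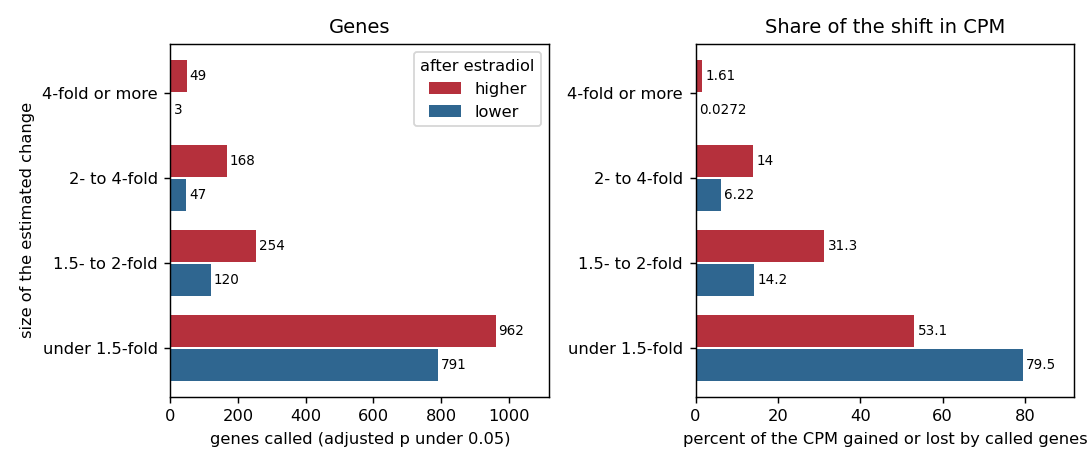
The left bars give the number of genes called higher (red) or lower (blue) in each size class, and the right bars the percent of the CPM gained or lost by called genes that falls in that class. The class under 1.5-fold holds 962 rising and 791 falling genes and carries 53.1% of the gain and 79.5% of the loss.

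All 12 libraries were fitted together, so the comparisons share 1 estimate of the spread for each gene. The same ligand was tested in uninduced cells, whose 6 libraries are not those compared in induced cells. edgeR called 0 of 14541 genes there (0.0%), 227 genes had an unadjusted p under 0.05, DESeq2 called 1 and limma-voom 0. With the replicate block edgeR called 0 as well, and 451 genes had an unadjusted p under 0.05. Both numbers are less than a share of 0.05 of the tested genes, which such a test gives on average without any effect. The 0 calls therefore do not show that no gene changed. The difference between both E2 changes, tested as an interaction, was called for 1232 genes (8.47%), 823 with a more positive (5.66%) and 409 with a more negative (2.81%) change in induced cells. With the replicate block 2143 were called. Of the 2394 genes called in induced cells, 1222 passed this test too, 820 of the rising and 402 of the falling genes. For the remaining called genes a difference between induced and uninduced cells was not shown.

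**Figure D3:**
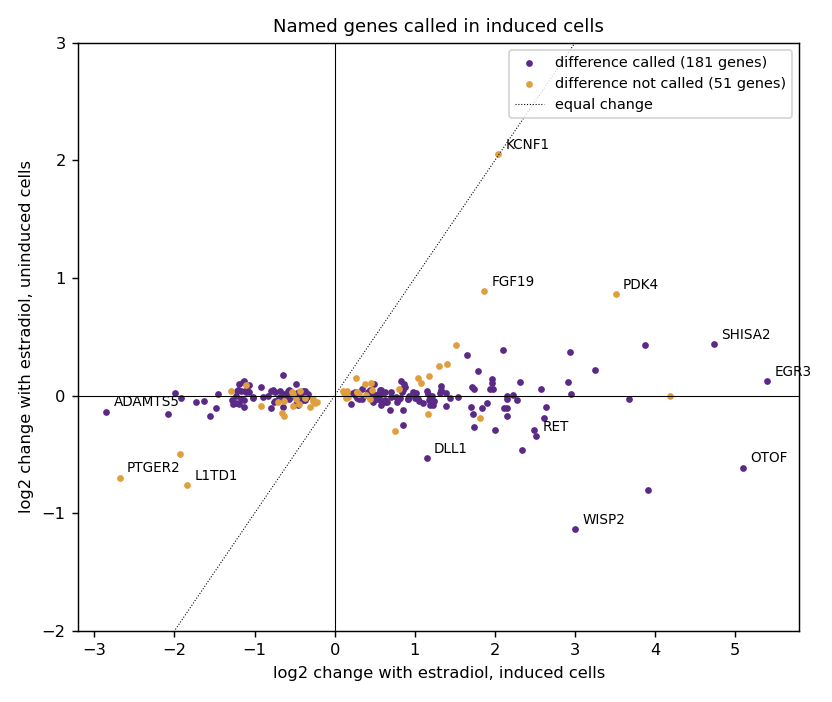
Each point is a named gene called in induced cells, with its log2 change with E2 there on the horizontal axis and its log2 change in uninduced cells on the vertical axis. The interaction was called for 181 of these 232 genes (purple), 223 have an uninduced change within 0.5 of zero, and KCNF1 lies on the line of equal change.

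Immediate early genes answer a stimulus without new protein synthesis, and several encode transcription factors of the EGR, FOS and NR4A families. Among 30 tested immediate early transcription factors 16 rose and 3 fell, with a median log2 change of 0.30 against -0.005 over all tested genes. The counts of this list and those below stand beside 9.85% called higher and 6.61% called lower over all tested genes. With the block these shares were 13.5% and 10.3%. EGR3 rose most of all genes with an average above 2 CPM, from 0.933, 1.23 and 1.21 CPM to 42.4, 51.8 and 52.5 CPM (log2 change 5.39, SE 0.14, adjusted p = 2.98e-11). EGR1 went from 26.7, 25.6 and 26.5 CPM to 56.4, 59.4 and 62.8 CPM (log2 change 1.19, SE 0.07, adjusted p = 5e-08), and every E2 library was above every vehicle library. FOS, the partner of JUN in AP-1, rose by 1.73 on the log2 scale (SE 0.17, adjusted p = 6.24e-06). NR4A3 lay low, at 0.381 CPM on average with vehicle and 1.09 CPM with E2, and its call was lost when E2 replicate 1 or vehicle replicate 2 or 3 was left out (adjusted p 0.0578 to 0.0989). In the 23 other immediate early genes 7 rose and 6 fell. CYR61, a secreted matrix protein, rose from 180.2, 160.3 and 155 CPM to 384, 439 and 414 CPM, RHOB and the kinase SIK1 rose by 1.04 and 0.63 on the log2 scale, and the antiproliferative gene BTG2 fell by 0.63. Without E2 replicate 2 the rises in this group numbered 4.

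The promoters of 3 rising genes were picked because they hold elements known from genes that answer serum or cAMP signals. The use of these elements in the cells was not tested. None of the 3 holds the consensus estrogen response element in this stretch, and it is rare there, with 2 of 11390 matched promoters holding it. The 3 sequences are from RefSeq on GRCh38.p14, a later build than the one of the deposited counts, and run over the 250 bases before the start, 5′ to 3′ on the gene's strand. Capitals mark the CArG box, bound by serum response factor, in EGR1 (chr5:138465229-138465478, plus strand), the CArG box and TATA box in FHL2 (chr2:105438514-105438763, minus strand), and the cAMP response element TGACGTCA and TATA box TATAAA in AREG (chr4:74444886-74445135, plus strand).
EGR1: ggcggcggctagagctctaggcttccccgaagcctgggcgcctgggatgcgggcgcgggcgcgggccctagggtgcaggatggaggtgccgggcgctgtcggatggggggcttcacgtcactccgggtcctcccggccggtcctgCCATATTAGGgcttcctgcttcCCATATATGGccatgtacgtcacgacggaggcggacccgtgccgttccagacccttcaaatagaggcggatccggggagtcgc
FHL2: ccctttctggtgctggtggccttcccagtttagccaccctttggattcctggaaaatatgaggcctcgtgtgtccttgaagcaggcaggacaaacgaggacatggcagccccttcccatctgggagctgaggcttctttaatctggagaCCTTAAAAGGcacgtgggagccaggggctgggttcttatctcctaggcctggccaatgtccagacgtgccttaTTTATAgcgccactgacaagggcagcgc
AREG: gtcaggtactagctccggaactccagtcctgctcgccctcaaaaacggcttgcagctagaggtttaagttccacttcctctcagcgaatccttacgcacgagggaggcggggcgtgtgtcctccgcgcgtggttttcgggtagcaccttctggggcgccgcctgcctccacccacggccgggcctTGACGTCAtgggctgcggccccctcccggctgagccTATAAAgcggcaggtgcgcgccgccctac
In EGR1 the 2 CArG boxes, CCATATTAGG and CCATATATGG, begin 105 and 83 bases before the start. In FHL2 the box CCTTAAAAGG begins 101 bases before it, and the TATA box, read on the other strand, 28 bases before it. In AREG the cAMP response element begins 65 and the TATA box 29 bases before the start.

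Promoters of 11390 tested genes were matched, each from 250 bases before to 50 bases after the start, and searched on both strands. A CArG box was found in 1.02% of them, in 7 of 161 promoters (4.35%) of genes at least 2-fold higher, and in 0 of 30 of genes at least 2-fold lower. The 7 genes were ANKRD23, ASB2, CD34, CHI3L1, EGR1, FHL2 and KCNK3. The palindromic estrogen response element, in its consensus form, occurred in 2 of the 11390 promoters and in 0 of the called genes. One arm of it, GGTCA, which the palindrome contains, occurred in 34.6% of all promoters, 32.3% of the genes at least 2-fold higher and 13.3% (4 of 30) of those at least 2-fold lower. The AP-1 site TGANTCA stood in 4.91% of all and 8.70% of the genes at least 2-fold higher, in 6.67% of those at least 2-fold lower and in 11.1% of those 1.5- to 2-fold lower, and the TATA box TATAAA in 6.01% of all, 9.94% of those higher and 16.7% of those lower by 2-fold. The cAMP response element TGACGTCA, shown for AREG, stood in 3.02% of all promoters and 3.11% (5 of 161) of the genes at least 2-fold higher. Among those at least 2-fold lower it stood in 3.33% (1 of 30). A site for EGR factors was found in 1.27% of all promoters, and in 0 of 161 and 0 of 30 of these 2 classes. The GC box, a 6-base element, occurred in 68.5% of all, 65.2% of those higher and 56.7% of those lower by 2-fold. These shares describe the letters in a 300-base window and were not tested.

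A list of 34 tested genes known from estrogen-responsive breast cancer cells had the largest share of calls, 24 higher and 1 lower, with a median log2 change of 0.66. This made 73.5% called, beside 16.5% of all tested genes. As for all lists here, the members were chosen with earlier results of these data known, so the share is a description and no test. WISP2, a secreted CCN family protein, rose from 0.622, 0.534 and 0.789 CPM to 4.95, 5.43 and 4.99 CPM, and GREB1, a cofactor induced by estrogen receptors, from 4.9, 1.85 and 1.89 CPM to 21.6, 12.9 and 12.4 CPM. In GREB1 replicate 1 was the highest library of both groups, and the groups did not overlap. RET, the receptor tyrosine kinase for GDNF family ligands, went from 1.55, 1.13 and 1.84 CPM to 7.22, 9.44 and 8.14 CPM (log2 change 2.51, SE 0.20, adjusted p = 6.61e-07). RAPGEFL1 rose by 1.72 on the log2 scale. In uninduced cells the median change of the list was -0.01, and the interaction was called for 21 of its 34 genes.

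EGF family ligands bind ERBB receptors at the cell surface and feed the MAP kinase pathway. Ranks 1 to 10 by size of change, among called genes averaging above 2 CPM with the same sign in the 3 same-numbered pairs, were EGR3, SHISA2, BSND, LOXL4, A4GALT, THRSP, VWF, DOK7, MGAT3 and GREB1, between 5.39 and 2.58 on the log2 scale. AREG encodes amphiregulin, which activates the EGF receptor, and went from 4.58, 1.41 and 2.1 CPM to 17.4, 8.38 and 10.43 CPM, replicate 1 being the highest in both groups (log2 change 2.31, SE 0.38, adjusted p = 0.000557). TGFA, another ligand of that receptor, rose from 44.5, 38.2 and 40.3 CPM to 84.2, 95.9 and 94.1 CPM (log2 change 1.17, SE 0.07, adjusted p = 4.36e-08). EREG, which encodes epiregulin of the same family, was called at 1.03 (adjusted p = 0.0185), and lost the call without E2 replicate 1 or 2 or vehicle replicate 2 (0.0623 to 0.130). The receptor ERBB3 fell by 0.34 on the log2 scale, and over the 10 tested ligands and receptors of the family 5 rose and 1 fell (3 rose without vehicle replicate 2).

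The insulin and IGF pathway had 8 rising and 4 falling genes among 20, and 2 falling without vehicle replicate 2. The adaptor IRS2 rose from 53.2, 36.4 and 36.5 CPM to 201, 174 and 174 CPM (log2 change 2.15, SE 0.13, adjusted p = 3.21e-08), and its relative IRS1 from 47.8, 54.2 and 49.5 CPM to 99.1, 112 and 115 CPM. IGFBP3, a binding protein like IGFBP5, moved the opposite way, from 223, 263 and 268 CPM to 118, 130.5 and 123 CPM (log2 change -1.02, SE 0.06, adjusted p = 4.01e-08). Both binding proteins were without overlap between the groups, 1 up and the other down by about the same factor.

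Other secreted factors stood among ranks 11 to 30. BDNF, a neurotrophin, rose from 5.36, 2.42 and 2.63 CPM to 18.8, 10.9 and 12 CPM, and IL12A, a cytokine subunit, from 3.81, 3.24 and 2.79 CPM to 13.8, 13.9 and 15.4 CPM. FGF19, an endocrine fibroblast growth factor, averaged 5.23 CPM with vehicle and 18.2 CPM with E2. It also differed by 0.89 in uninduced cells without passing the test there, and its interaction was not called (adjusted p = 0.73). LIF, a cytokine of the interleukin-6 family, rose from 26.1, 21.9 and 23 CPM to 72.4, 81.8 and 79.3 CPM. Of 43 cytokine, chemokine and TNF family genes 6 rose and 7 fell (without vehicle replicate 2, 3 fell), with CSF1 up by 0.71 and the interleukin-1 antagonist IL1RN down by 0.66. IL1RN lost its call without E2 replicate 3 or vehicle replicate 2 or 3 (0.0979 to 0.139).

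Enzymes and signal transducers took other places among these ranks. HSD11B2, which inactivates cortisol, rose from 30.2, 36.5 and 34.6 CPM to 129.7, 169 and 178 CPM, and PTPRH, a receptor tyrosine phosphatase, from 2.95, 1.85 and 2.37 CPM to 14.8, 8.65 and 10.1 CPM. The kinases NUAK1 and MAPK4 rose by 1.94 and 1.78 on the log2 scale, RHOU by 1.97, and TNS4, a focal adhesion protein, by 1.91. RBM24, an RNA-binding splicing factor, EFR3B, a plasma membrane protein, and RBP3, a retinoid carrier of the retina, rose by 2.49, 2.34 and 1.98. MXD1, a MAX partner that opposes MYC, was among the more abundant of these genes and rose from 113, 75 and 75.7 CPM to 351, 328 and 336 CPM (log2 change 1.96, SE 0.14, adjusted p = 1.21e-07). MYC itself rose less, by 0.47, and MXD4, a relative of MXD1, fell by 0.58. The noncoding RNA H19, an imprinted transcript, rose from 13.4, 18.7 and 16.9 CPM to 58.1, 80.7 and 84.5 CPM. As a class 5.63% of 657 tested long noncoding RNAs were called, 21 higher and 16 lower, against 17.5% of protein-coding genes. The 2 classes were not matched for level, and the share called was 6.15% of genes under 1 CPM and 21.2% above 100 CPM.

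Of 10 genes that mark endothelial cells, VWF and CD34 rose and 4 others that were tested did not pass. VWF was at 1.32, 1.54 and 0.999 CPM with vehicle and 6.77, 12.4 and 10.5 CPM with E2, and CD34 at 3.58, 3.21 and 3.63 CPM and 16, 15 and 14.8 CPM. The summed level of 10 endothelial markers was 57.1 to 63.3 CPM in the vehicle libraries and 68.9 to 79.5 CPM in the E2 libraries. In uninduced cells the sums were 65.8 to 82.2 CPM. Of the 10 markers, TIE1 was at 0 in all groups, and PECAM1, CDH5 and TEK had means between 0.0771 and 0.734 CPM after E2 in induced cells. KDR, a receptor for VEGF and chosen after its values were seen, was at 18.3, 25.2 and 26.1 unscaled CPM with vehicle and 16.7, 18.7 and 19.7 with E2 (log2 change -0.32, SE 0.17, adjusted p = 0.245), with vehicle replicate 1 inside the E2 range, and passed as lower with the block (log2 -0.31, adjusted p = 0.00123). Its uninduced means were higher, 45.4 CPM with vehicle and 44.1 CPM with E2. ENG, with PECAM1 and ERG the remaining tested markers, had a log2 change of -0.01. The part of other cells in these values was not tested, and in bulk RNA a change in the number of cells of a type and a change in RNA per cell cannot be told apart. Of the 3 fibroblast and 4 leukocyte markers tested edgeR called 0, though with the block PDGFRA and CD14 passed as lower (log2 -0.53 and -0.34).

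**Figure D4:**
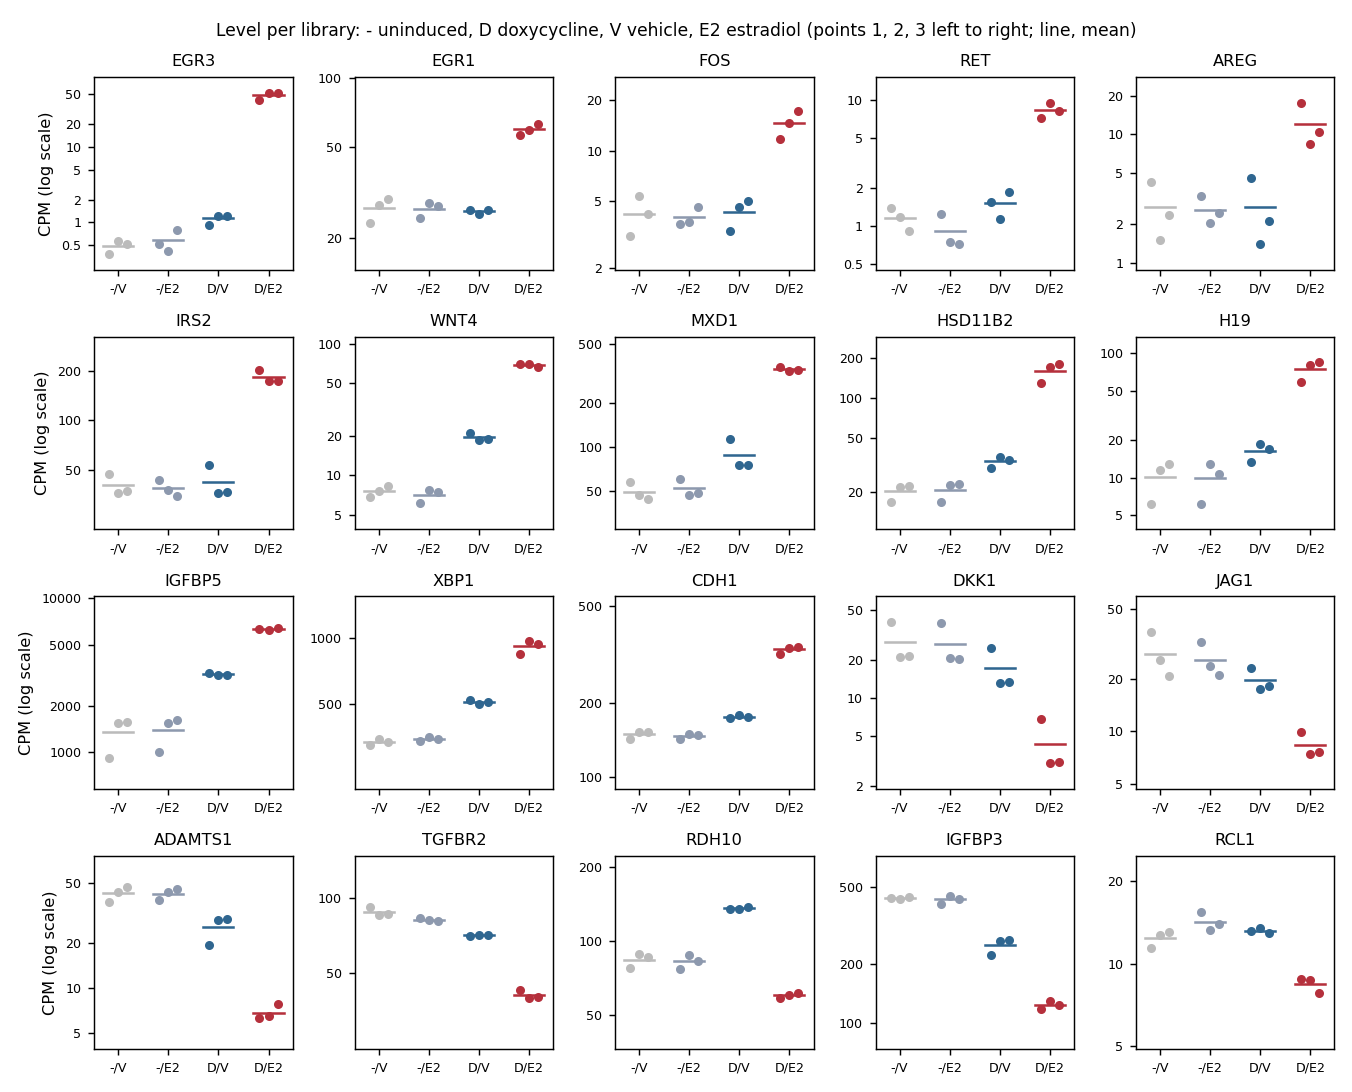
Levels of 20 genes in each of the 12 libraries in CPM on a log axis, with uninduced vehicle (-/V), uninduced E2 (-/E2), induced vehicle (D/V) and induced E2 (D/E2) from left to right, points for replicates 1, 2 and 3 and a line at the group mean. In the 20 panels the induced E2 libraries lie apart from the induced vehicle libraries, while the 2 uninduced groups overlap each other in all panels except those of TGFBR2 and RCL1.

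Surface glycans are built stepwise by glycosyltransferases in the Golgi, and 21 of 41 tested enzymes changed, 15 up and 6 down. A4GALT, which makes the globoside Gb3, rose from 1.55, 2.83 and 2.68 CPM to 13.8, 22.1 and 21.7 CPM. MGAT3, which adds bisecting N-acetylglucosamine, rose from 2.1, 2.33 and 2.42 CPM to 15, 12.9 and 14.5 CPM, and GCNT3 and FUT4, at lower levels, rose by 2.0 and 1.30 on the log2 scale. ST6GAL1, which caps chains with sialic acid, fell from 44.4, 51.2 and 51.2 CPM to 23, 22.9 and 22.7 CPM (log2 change -1.10, SE 0.07, adjusted p = 7.19e-08). GNE, the first enzyme of sialic acid synthesis, fell as well, from a mean of 226 CPM to 127 CPM without overlap, and GALNT7, an initiator of O-glycans, fell by 0.48 on the log2 scale.

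Among falling genes, 3 lost 4-fold or more. ADAMTS5, a protease of the cartilage matrix, went from 1.4, 2.55 and 2.1 CPM to 0.114, 0.432 and 0.27 CPM (log2 change -2.85, SE 0.31, adjusted p = 1.2e-05). The other 2 were receptors at low level, CHRM1 with 107 counts over the vehicle and 25 over the E2 libraries and PTGER2 with 27 and 4. PTGER2 lost its call when any 1 of the 3 E2 libraries or vehicle replicate 3 was left out (adjusted p 0.0596 to 0.116). ADAMTS1, related to ADAMTS5, fell from 19.4, 28.5 and 28.7 CPM to 6.31, 6.49 and 7.82 CPM, while ADAMTS4 rose from 3.34, 1.54 and 1.47 CPM to 13.6, 6.45 and 5.84 CPM. The list of secreted proteases and their inhibitors thus held falling and rising members, 4 and 6 of 34. MMP11 rose from 12 counts over the vehicle libraries to 45 over the E2 libraries, and lost its call when E2 replicate 2 or 3 or vehicle replicate 2 or 3 was left out (adjusted p 0.0593 to 0.145).

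Wnt proteins signal through Frizzled receptors and β-catenin, and DKK1 is a secreted inhibitor of that route. DKK1 fell from 24.9, 13.1 and 13.4 CPM to 6.77, 3.03 and 3.1 CPM, with replicate 1 highest in both groups (log2 change -1.99, SE 0.41, adjusted p = 0.00349). The ligand WNT4 rose from 21.1, 18.4 and 19 CPM to 70.3, 70 and 66.7 CPM, whereas WNT10A and WNT6 fell by 0.90 and 0.61 on the log2 scale. Across 32 tested genes of the pathway 5 rose and 7 fell, or 8 and 8 with the block.

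In the Notch pathway 3 genes rose and 7 fell among 26. The ligand JAG1 fell from 23.2, 17.6 and 18.3 CPM to 9.89, 7.47 and 7.64 CPM and the receptor NOTCH3 from 384, 480.5 and 475 CPM to 304, 344 and 338 CPM. DLL1, another ligand, rose by 1.15, and NUMBL, a Notch antagonist, fell by 0.46. MAML3, a coactivator, rose by 1.16, with an adjusted p of 0.0517 without vehicle replicate 2.

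For TGF-β and BMP signaling the calls were 7 up and 8 down among 40, and 11 and 12 with the block. The receptor TGFBR2 fell from 70.3, 70.9 and 71.1 CPM to 42.5, 39.6 and 40 CPM (log2 change -0.80, SE 0.04, adjusted p = 6.98e-09), and the coreceptor TGFBR3 rose from 13.4, 8.08 and 6.47 CPM to 26.6, 16.9 and 17.9 CPM. TGFB3, a ligand, rose by 0.85. Without vehicle replicate 2 the calls of this list were 4 up and 4 down. BMP6 was called at 0.76, but not when any single induced library other than vehicle replicate 1 was left out (0.0578 to 0.222).

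Further falls of 2-fold or more concerned transcription factors, retinoid metabolism, lipid export and the cell surface. ARID5B, a DNA-binding chromatin factor, fell from 92.9, 99.1 and 97.9 CPM to 38.2, 40.1 and 42.1 CPM, with tight replicates in both groups (log2 change -1.27, SE 0.05, adjusted p = 9.2e-10). RDH10, which makes retinaldehyde from retinol, fell from 135, 135 and 138 CPM to 58.5, 60.5 and 61.5 CPM (log2 change -1.17, SE 0.05, adjusted p = 1.84e-09). ABCA1, the cholesterol exporter, fell from 3.81, 5.12 and 3.52 CPM to 1.48, 1.42 and 2.34 CPM. SOX11 and FOXQ1, developmental transcription factors, fell by 1.55 and 1.12 on the log2 scale, HLF by 1.20, the exchange factor VAV3 by 1.24 and the ubiquitin ligase CBLB by 1.14. The actin-associated genes SHROOM2 and SHROOM4 fell by 1.46 and 1.1, RASSF10 by 1.48, SERTAD4 by 1.22, FAM84A by 1.20, ZNF485 by 1.13 and the adrenergic receptor ADRA2B by 1.13. STON1, an endocytic adaptor, fell from 1.94, 4.05 and 3.73 CPM to 1.02, 1.38 and 0.854 CPM. It overlaps a readthrough transcript, STON1-GTF2A1L, whose mean was 0.191 CPM with vehicle and 0 with E2, so counts of this pair may be shared between them. HRCT1 and PCDH20 fell by 1.30 and 1.1, and lost their calls on leaving out single libraries, HRCT1 without E2 replicate 1 or 3 or vehicle replicate 2 or 3 (0.0683 to 0.217) and PCDH20 without E2 replicate 2 or 3 (0.0639 and 0.0890). The pseudogene FMO6P fell by 1.07, and reads of such copies can be assigned to relatives.

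Ribosome biogenesis genes encode the nucleolar factors that process and assemble ribosomal RNA. None of the 53 tested rose and 20 fell, against 6.61% of all genes, with a median log2 change of -0.13 and a highest value of 0.04. The changes were small. RCL1 fell from 13.1, 13.4 and 12.9 CPM to 8.81, 8.69 and 7.82 CPM (log2 change -0.64, SE 0.08, adjusted p = 5.93e-05), with no overlap. NOB1, UTP15 and WDR74 fell by 0.40, 0.38 and 0.38 on the log2 scale, and the interaction was called for 12 of the 53. Without vehicle replicate 2 there were 12 falls, without all of replicate 2 or 3 there were 6 or 8, and with upper quartile scaling 24. Ribosomal protein genes did not pass the test in any of 53 cases, their log2 changes running from -0.07 to 0.02, and with the block the number called was 0 too. RPL12, for one, stood at 564, 541 and 527 CPM and 546, 516 and 505 CPM, with overlap of the groups.

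The unfolded protein response adapts the endoplasmic reticulum to secretory load, and 18 of its 42 tested genes rose while 1 fell. XBP1, a transcription factor of this response and a known estrogen target, rose from 522, 501 and 512 CPM to 847, 973 and 939.5 CPM (log2 change 0.85, SE 0.05, adjusted p = 1.13e-08). The chaperone partner DNAJB9 rose by 0.84, the kinase EIF2AK3 by 0.45 and the secreted factor MANF by 0.44. With the block 28 rose and 1 fell. Among symbol families, the SEC family of secretory pathway genes had 7 rises and 0 falls in 27, 25.9% called, beside 9.85% called higher and 6.61% called lower over all tested genes; it is 1 of 63 such families and its difference from other genes was not tested.

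Heat shock proteins and chaperones showed 9 rises and 0 falls in 33 (11 and 2 with the block), none of 2-fold. The small heat shock protein HSPB1 rose from 308, 335 and 338 CPM to 502, 527 and 509.9 CPM, HSPA2 by 0.68, BAG3 by 0.39 and FKBP5 by 0.63. FKBP5 is also a target of glucocorticoid and androgen receptors, and of 18 tested genes of that kind 9 rose and 1 fell. GLUL, glutamine synthetase, rose from 443, 476 and 484 CPM to 781, 851 and 886 CPM, NDRG1 by 1.05 and the metallothionein MT1X by 0.86, where reads may be shared with near-identical metallothioneins. CEBPD fell by 0.64.

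Amino acid transporters rose in 6 cases and fell in 1 among 29, or 10 and 3 with the block. This was 24.1% called, beside 16.5% of all tested genes (23.8% with the block), and the difference was not tested. SLC7A5, the light chain of the large neutral amino acid carrier, rose from 858, 658 and 674 CPM to 1860.0, 1485 and 1553 CPM (log2 change 1.16, SE 0.12, adjusted p = 8.04e-06). Its heavy chain SLC3A2 rose from 414, 346 and 339 CPM to 648, 512 and 533 CPM, and the glutamine carrier SLC1A5 from 699, 724 and 724 CPM to 1016, 974 and 973 CPM. SLC1A2 rose by 0.48 and its relative SLC1A3, also a glutamate carrier, fell by 0.47. ATF4 targets and serine synthesis genes gave 5 rises and 1 fall in 26 (9 and 3 with the block), 23.1% called, with 0 of them called in the interaction. The gene of the list that fell, by 0.27, was JDP2, a repressor of AP-1, and its call was lost without E2 replicate 3 or vehicle replicate 2. MTHFD2, DDIT3 and CHAC1 each lost the call without E2 replicate 1 or vehicle replicate 2 or 3 (0.0838 to 0.217). DDIT3 lost it without E2 replicate 3 too (0.0942). The groups of DDIT3 overlapped, with vehicle replicate 1 at 19.7 CPM and E2 replicate 2 at 19.3 CPM. Without vehicle replicate 2 or 3, and with upper quartile scaling, 2 rises were left. Of 20 aminoacyl-tRNA synthetases SARS and GARS rose, by 0.23 and 0.14, GARS losing the call without any single induced library other than vehicle replicate 1 (0.0527 to 0.180), and the block gave 6 rises and 1 fall.

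Lipid and glucose metabolism held rising and falling genes. THRSP, which promotes lipogenesis, rose from 12.4, 12.4 and 12.3 CPM to 77.7, 102 and 105 CPM (log2 change 2.94, SE 0.11, adjusted p = 9.2e-10), ACSL5 by 0.78 and the lipid droplet protein PLIN3 by 0.34, while ACSL3 fell by 0.38. In fatty acid synthesis and storage 7 of 31 rose and 4 fell. NPC1, which carries cholesterol out of lysosomes, rose by 0.27, and in the cholesterol list 5 of 34 rose and 1 fell (9 and 3 with the block), 17.6% called and near the 16.5% of all tested genes (23.8% with the block). PFKFB3, an activator of glycolysis, rose from 82.7, 81.6 and 81.4 CPM to 185, 211 and 214 CPM, and the glycogen-targeting subunit PPP1R3C fell from 24.9, 32.9 and 35 CPM to 12.1, 13.3 and 15.6 CPM. Among 43 genes of glycolysis, glycogen and hypoxia 9 rose and 4 fell. The 51 nuclear genes of the respiratory chain tested gave 0 calls. ATP5B and NDUFS1 came closest, at 0.08 and 0.10 on the log2 scale, and with the block 5 rose and 0 fell. Nucleotide and polyamine synthesis had 3 rises and 5 falls in 32, with AZIN1 and SMOX up by 0.41 and 0.42, and ODC1 and CAD down by 0.36 and 0.24, and 2 falls without vehicle replicate 3.

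Progress through G1 is set by cyclins, their kinases and inhibitors of these. CDKN1A, the CDK inhibitor p21, rose from 59.5, 64.6 and 68.9 CPM to 110.5, 127 and 128 CPM, and cyclin D1 (CCND1) from 78.7, 94.3 and 89.7 CPM to 124, 126 and 123 CPM. The kinase CDK6 fell from 31.3, 34.3 and 32 CPM to 17.9, 21.8 and 22.5 CPM, and E2F5 fell by 0.56. In the G1 list 5 of 23 rose and 4 fell (3 rose without E2 replicate 3), in DNA replication 3 of 36 rose and 0 fell (CDC6, GINS4 and POLD3, by 0.49, 0.27 and 0.25), and in G2 and mitosis 3 of 32 rose and 1 fell. CENPA, CENPE and TPX2 were the 3 that rose, by at most 0.30, CENPE losing the call without replicate 3 of either group (0.0553 and 0.0653), and the phosphatase CDC25B fell by 0.40. The shares of the last 2 lists, 8.33% and 12.5%, lie below the 16.5% of all genes; whether the lists differ was not tested.

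In the BCL2 family 7 of 19 rose and 3 fell. PMAIP1 (NOXA), a promoter of apoptosis, rose from 20.8, 14.7 and 15 CPM to 33.7, 27.8 and 26.6 CPM, and BCL2, an inhibitor of it, by 0.44. BIK and BBC3 (PUMA), both promoters of apoptosis, fell by 0.63 and 0.53, BBC3 losing the call without E2 replicate 2 or vehicle replicate 3 (adjusted p 0.114 and 0.126). Of 28 p53 targets 5 rose and 4 fell, and 1 fell without vehicle replicate 3. GADD45B of this list rose by 0.58 on the log2 scale. In the BCL2 family, too, 1 fell without vehicle replicate 3.

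Adhesion genes went in both directions. E-cadherin (CDH1) rose from 174, 178 and 175 CPM to 316, 337 and 340.3 CPM (log2 change 0.91, SE 0.04, adjusted p = 1.52e-09). Of 35 junction genes in all 2 rose and 9 fell (5 without vehicle replicate 2), with the desmocollins DSC2 and DSC3 down by 0.57 and 0.52 and the claudin CLDN23 by 0.79. Integrin β4 (ITGB4), of hemidesmosomes, fell from 387, 478 and 476 CPM to 272, 280.2 and 278 CPM (log2 change -0.69, SE 0.07, adjusted p = 1.28e-05), and its linker PLEC fell by 0.30. ITGB8 fell by 0.43, whereas ITGB5 rose by 0.57, and 5 of 38 integrin and matrix genes rose and 7 fell (8 and 10 with the block). The simple keratins KRT8 and KRT18 rose, from 2398, 2326 and 2324 CPM to 3025, 2723 and 2687 CPM and by 0.30 on the log2 scale. KRT80 and KRT13 rose by 0.76 and 1.18, KRT16 fell by 0.43, and of 20 keratins 5 rose and 2 fell (7 and 4 with the block). Replicate 1 had the highest KRT13 level of either group, and KRT13 and KRT16 each lost their call without vehicle replicate 2 and 2 other libraries (0.0503 to 0.0830), which left 3 rises and 0 falls without vehicle replicate 2.

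Small GTPases of the Rab family direct vesicle traffic, and their relatives of other families switch growth and cell shape. The GTPase-activating protein ARHGAP26 rose from 44.7, 41.9 and 40.6 CPM to 99.5, 108 and 109 CPM. In the TBC symbol family of Rab regulators 10 rose and 3 fell of 27, 48.1% and the largest share among 63 symbol families of at least 20 genes. TBC1D2 rose from 90.7, 87.2 and 81.4 CPM to 233, 227 and 217 CPM (log2 change 1.39, SE 0.04, adjusted p = 2.23e-10). ZNF symbols, mostly zinc finger transcription factors, numbered 490 with 27 rises and 30 falls, 11.6% called. WDR symbols had 2 rises and 9 falls of 59, 18.6% called, and METTL symbols 0 and 4 of 26, 15.4% called, both shares near the 16.5% of all tested genes.

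Targets of YAP and TEAD, the effectors of the Hippo pathway, gave 5 rises and 8 falls in 24. CYR61, FJX1 and WWC1 rose, FJX1 by 1.01 and WWC1 by 0.46, while IGFBP3 fell. Actin, myosin and SRF targets gave 3 rises and 1 fall in 31 (4 and 5 with the block), 12.9% called beside 16.5% of all tested genes. FHL2, a LIM protein with the CArG box shown above, rose from 285, 233 and 222 CPM to 584, 533 and 527 CPM (log2 change 1.16, SE 0.07, adjusted p = 7.4e-08), TPM1 rose by 0.15 (not called without any single induced library other than E2 replicate 1, 0.0587 to 0.144), and PDLIM5 fell by 0.22. In axon guidance families 8 of 45 rose and 10 fell (9 and 16 with the block). The semaphorins SEMA3B and SEMA3F rose by 1.39 and 0.93, while the ephrin receptor EPHA4 and the ligand EFNA1 fell by 1.17 and 0.77. UNC5C, a netrin receptor outside the list, fell by 1.14.

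Feedback on MAP kinases was divided as well, with 5 rises and 2 falls in 22 genes (8 and 3 with the block, and 1 fall without vehicle replicate 3). SPRY4 rose from 13.7, 11.1 and 11.8 CPM to 32.6, 24.4 and 27.5 CPM and its relative SPRY1 fell from 18.4, 24.4 and 29.2 CPM to 8.64, 12.7 and 12.9 CPM. The phosphatases DUSP10 and DUSP16 rose by 0.85 and 0.56. Of 20 tyrosine phosphatases 2 rose and 4 fell (1 rose without vehicle replicate 2, and 7 fell with the block), with PTPN13, PTPRJ and PTPN21 down by 0.68, 0.44 and 0.27.

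Of 29 tested nuclear receptors 7 rose and 8 fell, and 5 fell without vehicle replicate 2. The mineralocorticoid receptor NR3C2 fell from 6.53, 8.71 and 8.47 CPM to 4.78, 3.97 and 4.09 CPM, and the retinoic acid receptor RARG from 42.7, 44.8 and 46.3 CPM to 32.6, 29.1 and 31.3 CPM. THRB, a thyroid hormone receptor, fell by 0.92, and lost the call without vehicle replicate 1 or E2 replicate 2 or 3 (0.0501 to 0.0812). Of 35 coregulators 5 rose and 5 fell. The coactivator NCOA4 rose by 0.46, while NCOA7 fell from 247, 248 and 258 CPM to 158, 145 and 146 CPM and TBL1X by 0.70. In the circadian clock 3 of 23 rose and 6 fell (3 without vehicle replicate 2), the clock output factors DBP, NFIL3 and HLF among the falling genes (DBP by 0.68, NFIL3 by 0.48). Of 39 epithelial lineage transcription factors 11 rose and 9 fell, with KLF4 and RUNX1 up by 1.07 and 0.88.

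Surface receptors and channels were called in both directions. Of 43 G protein-coupled receptors 12 rose and 8 fell. The nucleotide receptor P2RY2 rose from 25.3, 25.8 and 27.5 CPM to 74.6, 90.8 and 90.7 CPM (log2 change 1.71, SE 0.07, adjusted p = 1.7e-09), the adenosine receptor ADORA1 from 19.7, 24.4 and 24.9 CPM to 63.2, 62.6 and 62.8 CPM, and the bradykinin receptor BDKRB2 by 1.74. In ion channels and transport 13 of 51 rose and 4 fell (1 without vehicle replicate 2). KCNK3 and KCNK15, potassium channels, rose by 1.65 and 1.4, and the bicarbonate carrier SLC4A7 by 1.02. KCNF1 was called with 22 counts over the vehicle and 94 over the E2 libraries, but its difference was as large in uninduced cells (2.04 and 2.05 on the log2 scale, interaction adjusted p = 0.982), and the call was lost without vehicle replicate 2 (0.0914).

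The 10 largest losses in CPM included IGFBP3, ITGB4, NCOA7, NOTCH3, GNE and PLEC, given above. Of the other 4, SLC12A2, the sodium-potassium-chloride carrier, went from 543, 727 and 723 CPM to 371, 522 and 531 CPM (log2 change -0.48, SE 0.13, adjusted p = 0.0216), and lost its call without E2 replicate 1 or vehicle replicate 2 or 3 (0.0705 to 0.105). RARRES1, a retinoid-responsive gene, fell by 0.45, the metalloreductase STEAP4 by 1.02 and the HGF receptor MET by 0.34. Among the largest gains were clusterin (CLU), a secreted chaperone, with 0.70, the epithelial factor EHF with 0.53 and calmodulin (CALM2) with 0.57.

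The following genes were among those with the smallest p-values of their size class. VASN, a TGF-β binding membrane protein, rose from 37.2, 38.6 and 39.1 CPM to 111, 116 and 108 CPM, SHB, an adaptor, from 75.7, 82.6 and 79 CPM to 188, 184 and 181.5 CPM, and TTC7A from 75, 73.8 and 72.6 CPM to 181, 171 and 171 CPM. In the class of 1.5 to 2-fold, DGKZ rose by 0.82, RBBP8 by 0.84 and WDR26 by 0.80. Falls of that class included IFNGR1, a receptor chain for interferon γ, from 157, 143 and 147 CPM to 95.5, 85.4 and 86 CPM, and UBASH3B by 0.76. Below 1.5-fold, ECE1, NCCRP1 and OGFOD1 rose by 0.58, 0.55 and 0.54, and PDP1, ZFAND5, SERINC5 and RNF145 fell by 0.57, 0.47, 0.46 and 0.41.

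Some large ratios rest on few reads, and no fold is given for them. OTOF had 2, 3 and 0 counts in the vehicle and 39, 81 and 70 in the E2 libraries. ASB2 had 0, 2 and 2 against 18, 28 and 21, PTH1R 1, 1 and 0 against 8, 20 and 16, and PDK4, a kinase that inhibits pyruvate dehydrogenase, 2, 0 and 1 against 13, 13 and 13. The 3 E2 libraries were above the 3 vehicle libraries in each. The interaction was called for OTOF and ASB2 (adjusted p = 0.00637 and 0.00983), and not for PTH1R or PDK4. L1TD1, called lower with 25 against 7 counts, lost the call without E2 replicate 2 or 3 or vehicle replicate 1 or 3 (0.0854 to 0.164), and FAM35B, a near-identical copy of another gene, fell from 81 to 22 counts. Of the genes named only by a locus number, LOC100507584 rose from 13 to 201 counts and LOC152225 fell from 89 to 28.

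Interferon-stimulated genes, proteasome subunits and histone genes had smaller shares of calls (10.5%, 9.68% and 6.67%) than all tested genes. Interferon-stimulated genes had 2 rises and 2 falls in 38 (2 and 6 with the block), with ISG20 and USP18 up and IFIT2 and IRF1 down, by 0.47, 0.38, 0.54 and 0.40 on the log2 scale. ISG20 lost its call without any single induced library other than E2 replicate 1 (0.0508 to 0.214), USP18 without E2 replicate 1 or vehicle replicate 2 or 3, and IFIT2 without E2 replicate 2 or 3 or vehicle replicate 1, and 0 rose without vehicle replicate 2. Proteasome subunits had 3 rises in 31, PSMD3, PSMC2 and PSMD1, by 0.14, 0.11 and 0.10, and the 3 lost their calls with upper quartile scaling, with no filter and without any single induced library, except PSMD1 without E2 replicate 1 (adjusted p 0.0527 to 0.124). Of 15 histone genes and nuclear RNAs, which move with RNA quality, H1F0 alone rose, by 0.35, and 0 fell. The MYC network had 3 rises and 1 fall in 13 (3 and 4 with the block), with MLXIPL beside MYC and MXD1 among the rises, though not without E2 replicate 1 or vehicle replicate 2 (0.0543 and 0.117). Among 15 epithelial and basal markers 3 rose and 0 fell, the 3 being CDH1, KRT8 and KRT18, and with the block 6 rose and 3 fell.

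**Figure D5:**
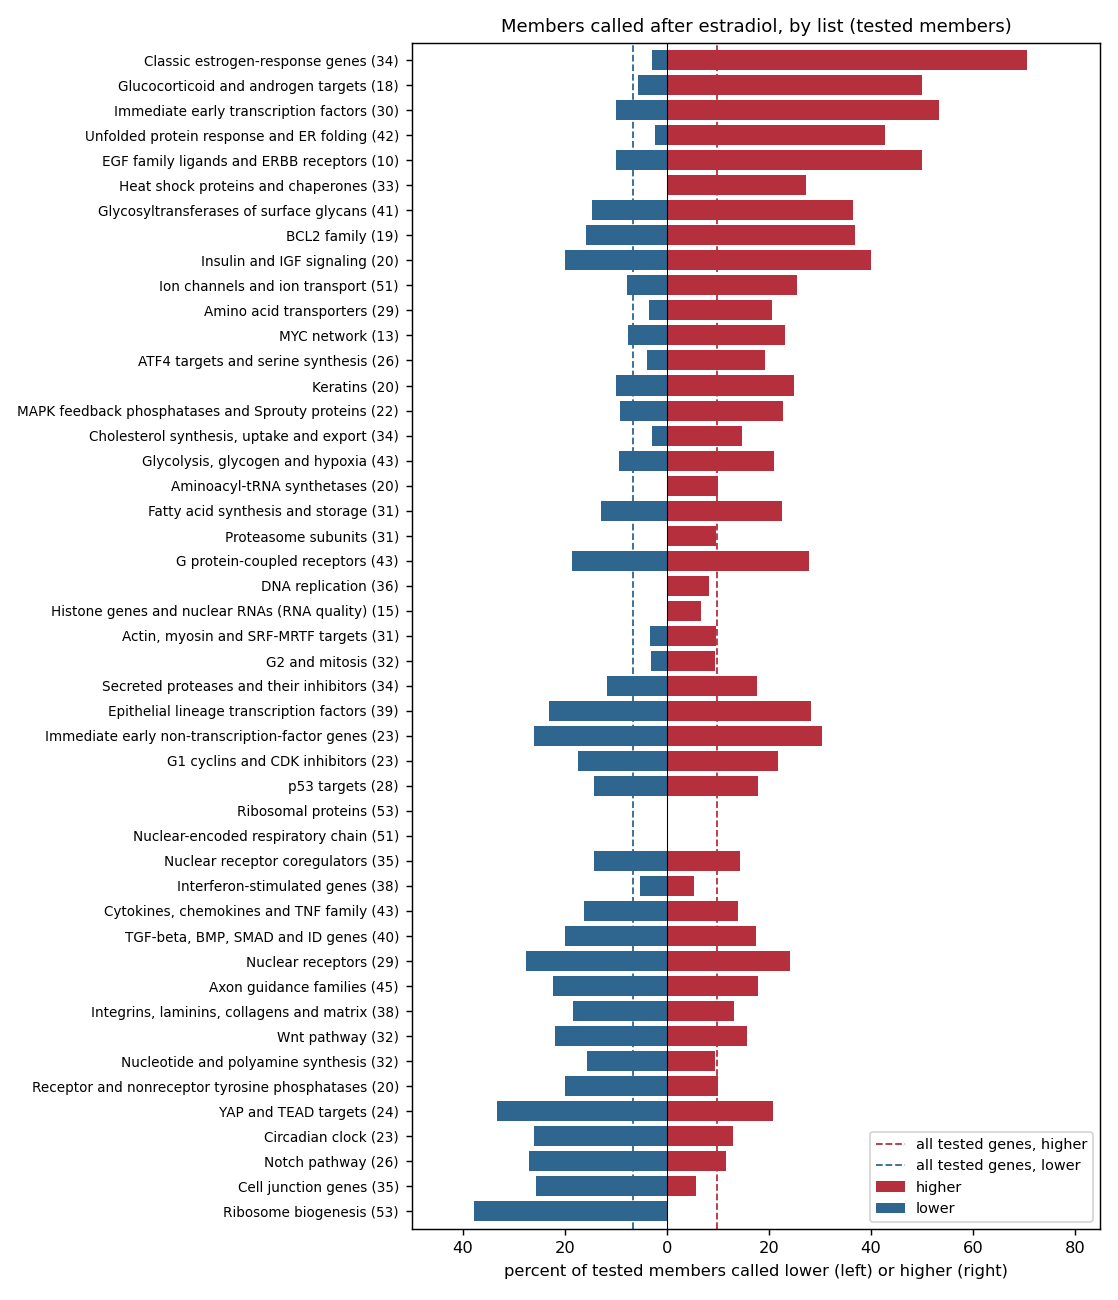
For each list described, bars give the percent of its tested members (number in brackets) called higher to the right and lower to the left, and dashed lines the percent over all tested genes, 9.85% higher and 6.61% lower. Estrogen-response genes reach furthest to the right and ribosome biogenesis genes furthest to the left, with no bar to the right.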

How the data were processed

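RNA from 12 libraries of MDA-MB-468 cells with inducible estrogen receptor β was sequenced, 3 libraries in each of 4 groups, and groups and replicate numbers were taken from the sample labels. The authors deposited RSEM expected counts per gene, a fraction of transcripts per gene and RefSeq accessions, and the submitters' processing notes name RSEM 1.1.16, DESeq 1.7.10 and the build hg19 without giving their order. The aligner and whether counting used strand are not given in the sources used here. The deposited fraction was multiplied to TPM, and the expected counts as deposited were rounded to whole numbers before testing.

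Genes were kept by filterByExpr (minimum count 10, minimum total 15), scaled by TMM and fitted with edgeR 4.0.16 (R 4.3.3) with a mean for each of the 4 groups over the 12 libraries, which leaves 8 residual degrees of freedom. Quasi-likelihood F tests were adjusted by Benjamini-Hochberg over the 14541 genes, and an adjusted p under 0.05 was a call. SE values were derived from the F statistic. Differences between E2 changes were tested as an interaction, and minimum folds with glmTreat. RLE and upper quartile scaling, DESeq2 1.42.0, limma-voom (limma 3.58.1), no filter, a stricter filter, the 2 groups alone, a stricter threshold, each library or replicate number left out and a replicate block were tried, and the fit was tested on simulated data.

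The replicate numbers come from the labels, and each goes with 1 lane in the deposited file names. Correlations of deviations in 12422 genes were 0.198, 0.314 and 0.433 for the 3 same-numbered pairs of the induced groups. Over all groups same numbers gave 0.041 to 0.433, and different numbers -0.398 to 0.321 with a median of -0.188, so the ranges overlapped. Deviations sum to 0 within a group, which pulls different numbers below 0 where same numbers lie above it. The numbers were taken to pair the libraries, and the block rests on that choice. The minimum level for that check was changed once after its first result, and the 3 pairs exceeded the limit either way. Replicate 1 forms a set of its own with 1 library a group, which allows no test within it.

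The named genes are those called at ranks 1 to 30 in each direction, up to 4 members of each of 52 lists, the 10 largest gains and losses in CPM, 5 low-level genes in each direction and the 5 smallest p of each size class, and 10 genes so chosen are not reported here. The members and lists were chosen with earlier results of these data known. Of 23228 genes, 22548 were matched by accession and 267 by symbol to RefSeq, from which promoters on GRCh38.p14 were read, and no coordinates were converted. Fold changes of genes with few counts depend on the prior count of the fit.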

Additional observations from a re-analysis of the deposited data

Results flagged for a closer look

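The change with E2 differed between induced and uninduced cells by the interaction test (edgeR quasi-likelihood test, Benjamini-Hochberg adjustment) for 823 genes in the positive and 409 in the negative direction. The genes below are the 5 in each direction with the smallest p. ARID5A was chosen after its values were seen.

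VASN had a difference of 1.55 on the log2 scale (SE 0.07, adjusted p = 6.2e-08), from 1.54 in induced and -0.01 in uninduced cells. For TBC1D2 the difference was 1.37, for SHB 1.23 and for TTC7A 1.29, with uninduced changes between -0.05 and 0.02. ARID5A, a relative of ARID5B that rose by 1.5 in induced cells, differed by 1.55 (SE 0.09, adjusted p = 1.52e-07). ARID5B went the opposite way with -1.20 (SE 0.07, adjusted p = 1.87e-07), so the 2 relatives moved apart. RDH10 differed by -1.14, TGFBR2 by -0.70, EFNA1 by -0.82 and ST6GAL1 by -1.13, with uninduced changes between -0.10 and 0.05.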

How the results depend on the processing

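Depth limits the low range, and 3 libraries a group limit all tests. The called genes of the main fit kept their direction wherever an alternative called them too (0 of opposite sign). Upper quartile scaling gave 1258 higher and 1206 lower calls, RLE 1453 and 951, DESeq2 1311 and 820, and limma-voom 1490 and 1002. With the replicate block 1497 genes were called lower, 2143 in the interaction, and past a minimum fold 69 lower at 1.5-fold, 14 lower at 2-fold and 11 higher at 4-fold. Among the genes chosen by the naming rule the block changed the calls of ESR2, ATP5B, NDUFS1, CD14 and PDGFRA, each called with it, and no other. KDR, which that rule did not choose, was called with the block too. At an adjusted p under 0.01 there were 1528 calls in all, 519 of them lower, and 696 in the interaction. DESeq2 called 1 gene in uninduced cells.

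Leaving out a library or a replicate number gave 990 to 3391 calls, 688 to 1908 higher, 302 to 1483 lower, 33 to 73 at least 2-fold lower, 306 to 2105 in the interaction, 0 to 1 in uninduced cells and 22 to 49 lower past 1.5-fold. The most calls came without replicate 1 and the fewest without replicate 3, and the cause was not tested. Uncalled genes changed sign: COL1A1 ran from -0.005 (without replicate 2) to 0.115, ITGAM from -0.457 to 0.028 (without E2 replicate 2), and ESR1 from -0.078 (without replicate 2; -0.048 without vehicle replicate 2) to 0.192. Of the named genes, 30 lost their call without some single library, as given beside them, and another 35 lost it for no single library but without a whole replicate number, which leaves 2 libraries a group (adjusted p 0.051 to 0.188). These were ACSL3, BCL2, BTG2, DKK1, FUT4, HLF, KLF4, MXD4, SARS, SHROOM2, SHROOM4, TBL1X, TGFB3 and TPX2 without replicate 2 and likewise without replicate 3, ABCA1, ADRA2B, BAG3, DUSP10, E2F5, EHF, FAM35B, NDRG1, PTPN21 and PTPRJ without replicate 2, and CENPA, DLL1, DSC3, GINS4, LOC152225, NOTCH3, NPC1, PDLIM5, POLD3, SLC1A2 and STON1 without replicate 3.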
